A study of Mus musculus with 6 samples.

Results

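Immunoglobulin transcripts were followed in myometrium (the muscular wall of the uterus) of late-pregnant mice with and without Tcf23. The genes are Jchain and those immunoglobulin V and constant region genes whose 6 deposited normalized values summed to at least 50, which left 141 of the 55055 genes in the table. The symbol pattern alone matched 362 genes, of which 134 had no count in any library and 87 had counts but a smaller sum. Those 87 genes held 1201 of 252993 immunoglobulin counts, or 0.475%. The 141 genes comprised 60 Ighv, 66 Igkv and 3 Iglv genes, 7 heavy chain constant genes, Igkc, 3 Iglc genes and Jchain. Because the sum chose them, it is given as a description. The last genes inside the limit were Igkv4-90 with a sum of 55.1, Ighv2-3 with 50.4 and Ighv1-61 with 50.05, and the first outside were Ighv1-71 with 49.7, Igkv1-132 with 49.2 and Igkv1-122 with 48.2. Of the constant region genes, Ighe with 6 counts and Iglc4 with 1 count fell below the limit.

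The study asked what the loss of Tcf23, a basic helix-loop-helix protein gene, changes in this muscle. Poly(A)-selected RNA was sequenced from 3 Tcf23 knockout mice made with CRISPR/Cas9 and from 3 wild-type mice, each library from a different animal. All 6 were pregnant, at E19.5 in the sample labels and gestational day 19 in the series design. The sources used here give neither strain, nor age, nor the position of the deletion. Total counts ran from 39939686 to 65036402 in knockout and from 47345181 to 55236312 in wild-type. Tcf23 had 0, 2 and 1 counts in knockout replicates 1, 2 and 3, against 4203, 5970 and 3360 counts in wild-type replicates 1, 2 and 3. The smooth muscle genes Acta2 and Myh11, which mark this tissue, ran from 3607 to 8536 CPM and from 2320 to 8190 CPM in knockout, against 6325 to 7074 CPM and 5475 to 5925 CPM in wild-type, with knockout replicate 3 lowest for both. In the sentences that follow, CPM is counts per 1000000, with library sizes scaled by the TMM method, and 3 values of a genotype stand in the order of replicates 1, 2 and 3.

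A B cell builds its heavy chain from V, D and J segments and its light chain from V and J segments, so cells of 1 clone use 1 heavy and 1 light chain V gene. After activation it can switch the constant region from IgM to IgG, IgA or IgE, and as a plasma cell it devotes much of its messenger RNA to that antibody. The J chain joins IgA into dimers and IgM into larger forms, which the polymeric immunoglobulin receptor carries across epithelia such as that of the uterus. In bulk tissue, fewer plasma cells and less immunoglobulin RNA per cell cannot be told apart.

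The 67 genes on chromosome 12 are heavy chain genes, the 67 on chromosome 6 are kappa genes, the 6 on chromosome 16 are lambda genes, and Jchain lies on chromosome 5 (mm10). V genes resemble each other closely. For the 129 V genes, the main exon was 298 to 351 bases long, and the most similar V exon of the same class was a median of 95.7% identical. It was at least 97% identical for 28 of them, and in 1 case, Ighv1-62-2 and Ighv1-71, the exons were the same. Reads of such genes can be shared or dropped in counting, and somatic mutation adds further differences, so the value of a single V gene is uncertain. The 3 pairs that follow, chosen after their values were seen, let that closeness be read beside how unevenly the genes of a pair were counted. Each is the last 298 or 300 bases of the V exon in the GENCODE M21 transcripts (build mm10), on the minus strand and written 5′ to 3′. Capitals mark the bases at which the members of a pair differ. The kappa pair lies at chr6:68704508-68704805 and chr6:68631963-68632260, the heavy chain pair at chr12:114523441-114523740 and chr12:114479005-114479304, and the lambda pair at chr16:19085017-19085316 and chr16:19260401-19260700.
Igkv10-94: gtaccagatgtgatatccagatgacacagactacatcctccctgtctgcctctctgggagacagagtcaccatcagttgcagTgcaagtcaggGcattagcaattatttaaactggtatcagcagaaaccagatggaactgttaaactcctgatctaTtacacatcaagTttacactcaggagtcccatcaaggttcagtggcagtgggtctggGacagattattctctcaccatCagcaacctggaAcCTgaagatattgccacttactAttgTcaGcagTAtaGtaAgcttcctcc
Igkv10-96: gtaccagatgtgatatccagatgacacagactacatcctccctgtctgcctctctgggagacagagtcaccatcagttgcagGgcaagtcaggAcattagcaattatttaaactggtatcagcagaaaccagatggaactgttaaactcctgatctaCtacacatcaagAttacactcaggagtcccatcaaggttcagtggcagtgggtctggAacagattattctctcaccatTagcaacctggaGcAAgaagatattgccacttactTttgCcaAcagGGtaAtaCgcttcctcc
Ighv10-3: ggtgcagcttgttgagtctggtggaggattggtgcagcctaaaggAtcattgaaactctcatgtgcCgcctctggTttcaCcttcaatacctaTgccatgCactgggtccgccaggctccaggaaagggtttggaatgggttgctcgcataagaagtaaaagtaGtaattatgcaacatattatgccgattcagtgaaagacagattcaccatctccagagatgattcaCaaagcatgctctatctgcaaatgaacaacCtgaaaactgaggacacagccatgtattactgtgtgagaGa
Ighv10-1: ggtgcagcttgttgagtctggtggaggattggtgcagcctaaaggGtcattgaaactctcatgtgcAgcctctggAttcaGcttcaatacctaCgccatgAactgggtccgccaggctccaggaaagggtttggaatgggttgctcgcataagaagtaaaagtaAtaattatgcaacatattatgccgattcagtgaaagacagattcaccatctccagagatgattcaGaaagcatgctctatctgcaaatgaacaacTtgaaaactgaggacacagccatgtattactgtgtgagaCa
Iglv1: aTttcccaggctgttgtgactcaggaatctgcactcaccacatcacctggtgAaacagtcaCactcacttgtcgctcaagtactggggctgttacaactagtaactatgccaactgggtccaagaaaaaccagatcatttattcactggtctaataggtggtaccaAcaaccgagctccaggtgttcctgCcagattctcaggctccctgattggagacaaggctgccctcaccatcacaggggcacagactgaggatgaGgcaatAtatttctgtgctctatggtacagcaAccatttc
Iglv2: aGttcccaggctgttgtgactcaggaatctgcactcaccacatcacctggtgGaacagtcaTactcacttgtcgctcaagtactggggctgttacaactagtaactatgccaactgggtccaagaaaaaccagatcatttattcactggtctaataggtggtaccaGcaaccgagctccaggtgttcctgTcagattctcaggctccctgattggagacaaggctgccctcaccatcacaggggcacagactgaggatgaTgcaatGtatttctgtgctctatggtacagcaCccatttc

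The kappa pair differed at 16 bases, the heavy chain pair at 10 and the lambda pair at 8. Igkv10-94 had 16, 926 and 41 counts in knockout, against 29, 6 and 4 counts in wild-type. Igkv10-96 had 482, 551 and 133 counts in knockout, against 131, 117 and 52 counts in wild-type. The excess of Igkv10-94 was thus in knockout replicate 2, while Igkv10-96 was also high in knockout replicate 1, at 7.49 CPM against 9.93 CPM in replicate 2. The V exon most similar to that of Igkv10-94 was not its partner here but Igkv10-95, at 96.98% identity, with 3 counts in total. Ighv10-3 had 24, 740 and 3 counts in knockout, against 4, 10 and 5 counts in wild-type. Ighv10-1 had 24, 149 and 60 counts in knockout, against 4, 31 and 10 counts in wild-type. Knockout replicate 2 was again the highest library for both genes. For Ighv10-3 it stood far above the other libraries, at 13.3 CPM against at most 0.373 CPM. For Ighv10-1 it had 2.69 CPM, against 1.46 CPM in knockout replicate 3. Iglv1 had 574, 1201 and 512 counts in knockout, against 288, 452 and 50 counts in wild-type, while Iglv2 had 1 to 39 counts per library. Most lambda V reads were assigned to Iglv1 in each of the 6 libraries.

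Summed over the 141 genes, each knockout library held more immunoglobulin RNA than any wild-type library. The sum was 842, 2024 and 858 CPM in knockout, against 412, 472 and 115 CPM in wild-type. The knockout mean was 1241 ± 678 CPM and the wild-type mean 333 ± 191 CPM (SD, n = 3 each), a ratio of 3.73. Knockout replicate 2 was far above the other knockout libraries and wild-type replicate 3 far below the other wild-type libraries. On the log2 scale the ratio was 1.90, with 1.35 when knockout replicate 2 was left out and 1.49 when wild-type replicate 3 was left out. The summed genes took 0.0833, 0.202 and 0.0881% of all counts in knockout, against 0.0406, 0.0464 and 0.0117% in wild-type. No test was run on the sum, because these genes were chosen with the result known.

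Taken one by one, 0 of the 110 genes with enough counts for a test passed an adjusted p under 0.05 in edgeR's quasi-likelihood test over 19599 genes, where 4 genes or 0.0204% passed. At an unadjusted p under 0.05, 52 of the 110 were higher in knockout, against 0 lower, against 5.27% higher and 3.29% lower over all genes tested. The count of 52 became 42 of 117 tested genes without knockout replicate 2, against 6.84% higher over all genes in that fit. Without wild-type replicate 3 it was 48 of 137, against 3.70% higher over all genes in that fit. The groups did not overlap for 46 of the 110, each of them higher in knockout, against 7.22% higher and 7.01% lower over all genes. Log2 changes were positive for 108 of 110, with a median of 1.89 and a range of −0.59 to 5.31, against 52.1% positive and a median of 0.01 over all genes. Genes of 1 antibody are transcribed in the same cells, so these are not 110 separate observations, and a gene that passed the count filter through 1 group alone had to differ. The other 31 genes, with 44 to 320 counts over the 6 libraries, were not tested and comprised 17 Ighv genes, 13 Igkv genes and Ighg3. limma-voom called 0 of the 110. DESeq2 called 34 of the 107 genes to which it gave an adjusted p higher and 0 lower, against 1.29% higher over all genes. With the replicate number as a block, edgeR called 0. The lowest edgeR adjusted p was 0.0902, for Igkv3-4, a gene named after its values were seen, at 0.746, 1.17 and 0.829 CPM in knockout, against 0.150, 0.0771 and 0.0714 CPM in wild-type.

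**Figure D1:**
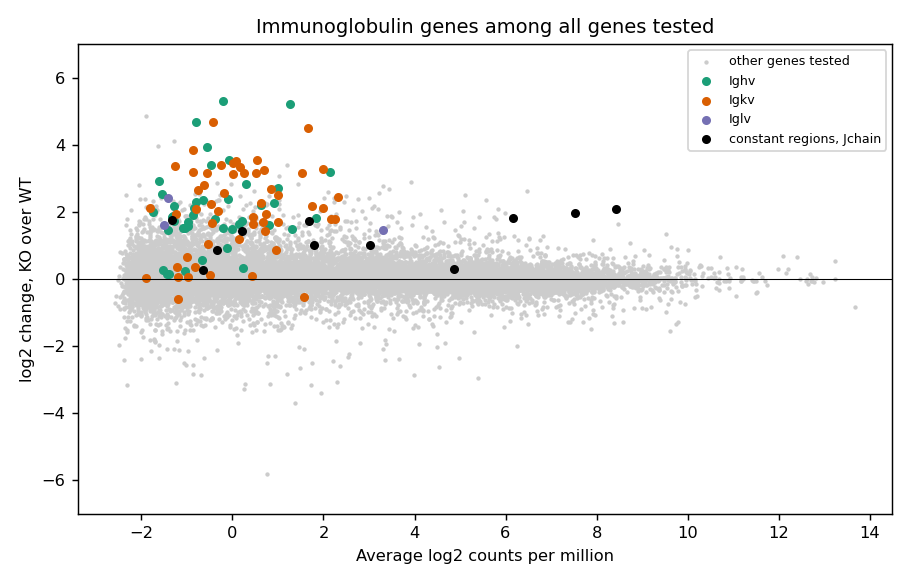
Average log2 CPM of each gene tested (x axis) against its edgeR log2 change, knockout over wild-type (y axis); 1 gene lies outside the axis. Of the 110 immunoglobulin genes in colour or black, 108 lie above 0.

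IgA was the main isotype at the RNA level, since its heavy chain gene Igha had the highest level per exonic length of the heavy chain constant genes in each library. Igha (mm10 chr12:113254830-113260236, minus strand) had 369, 961 and 353 CPM in knockout, against 169, 186 and 40.4 CPM in wild-type. Each knockout library was above each wild-type library. The log2 change was 2.09 ± 0.63 (SE), with an edgeR adjusted p of 0.383 and a DESeq2 adjusted p of 0.0127. It was 1.46 without knockout replicate 2, and 1.66 without wild-type replicate 3.

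IgM RNA had a smaller log2 change. Ighm (chr12:113418558-113422730, minus strand), which encodes the heavy chain of IgM, had 28.2, 33.5 and 34.4 CPM in knockout, against 23.4, 32.4 and 22.5 CPM in wild-type. The groups overlapped, and the log2 change was 0.29 ± 0.18 (edgeR adjusted p = 0.751). Ighd, which encodes the IgD heavy chain made by naive B cells, had 0.420, 0.595 and 0.976 CPM in knockout, against 0.579, 0.578 and 0.482 CPM in wild-type. Its groups overlapped too. Its log2 change of 0.26 became −0.11 without knockout replicate 3.

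Of the IgG heavy chain genes, Ighg2c alone had groups that did not overlap. Ighg2c had 3.67, 6.69 and 4.27 CPM in knockout, against 1.31, 2.35 and 0.785 CPM in wild-type. Its log2 change was 1.72 ± 0.43, with an edgeR adjusted p of 0.314 and a DESeq2 adjusted p of 0.00694. Ighg2b had 6.26, 4.98 and 2.49 CPM in knockout, against 2.79, 3.85 and 0.250 CPM in wild-type, and Ighg1 had 1.03, 0.992 and 0.878 CPM in knockout, against 0.257, 1.21 and 0.107 CPM in wild-type. Both overlapped between genotypes, with wild-type replicate 3 lowest. Ighg3 had 30, 1 and 1 counts in knockout, against 2, 3 and 37 counts in wild-type, too few for the test. Its counts came mainly from 1 library of each genotype, and wild-type replicate 3, the lowest library for summed immunoglobulin RNA, had the most. Of the IgG counts per exonic length in that library, 26.6% were Ighg3.

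**Figure D2:**
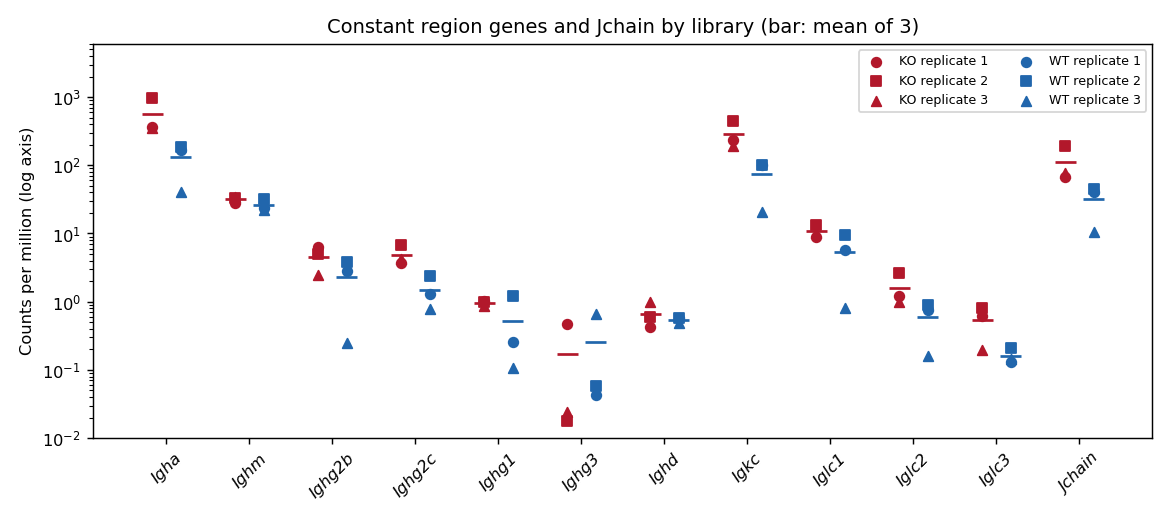
CPM on a log axis (y) of each constant region gene and Jchain (x) in the 3 knockout libraries (red) and 3 wild-type libraries (blue), with bars at the group means. Igha, Igkc, Jchain, Ighg2c and Iglc2 separate the groups, while Ighm, at 28.2 to 34.4 CPM in knockout, against 22.5 to 32.4 CPM in wild-type, does not.

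The share of Igha among heavy chain RNA did not overlap between the genotypes. Per exonic length, Igha made up 86.9, 93.4 and 85.0% of heavy chain constant counts in knockout, against 81.0, 76.7 and 53.5% in wild-type. The means were 88.4 ± 4.40% in knockout, against 70.4 ± 14.8% in wild-type (SD, n = 3 each). The difference of 18.0 percentage points was 9.59 without wild-type replicate 3. Ighm made up 9.39, 4.60 and 11.7% in knockout, against 15.9, 18.9 and 42.1% in wild-type. The 4 Ighg genes together made up 3.57, 1.89 and 2.89% in knockout, against 2.74, 4.07 and 3.50% in wild-type, with overlapping groups. With Ighm and Ighd left out, the difference in the Igha share was 1.74 percentage points. The number of Igha counts per Ighm count was 13.1, 28.7 and 10.3 in knockout, against 7.22, 5.75 and 1.80 in wild-type. Knockout replicate 2, with the most immunoglobulin RNA, was highest on this ratio and wild-type replicate 3, with the least, was lowest. The part of the total amount in the difference between genotypes was not tested.

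**Figure D3:**
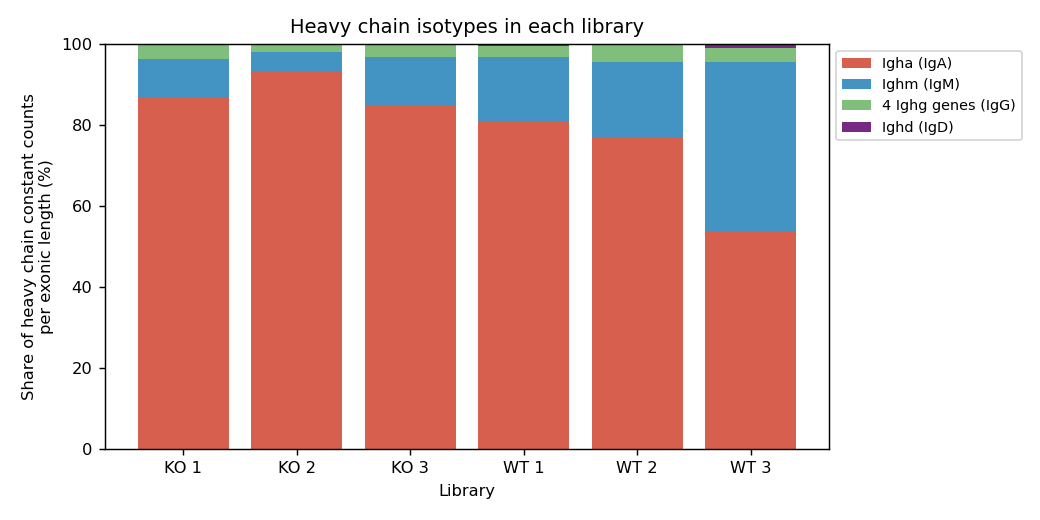
Share of heavy chain constant counts per exonic length (y axis, %) by isotype in each library (x axis), knockout to the left. Igha takes 85.0 to 93.4% in knockout, against 53.5 to 81.0% in wild-type, and Ighm most of the rest.

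Jchain was high in the same libraries as Igha, with a slightly smaller log2 change. Jchain (chr5:88520512-88527891, minus strand), which encodes the joining chain of polymeric IgA and IgM, had 68.4, 191 and 77.1 CPM in knockout, against 39.9, 44.8 and 10.6 CPM in wild-type. The groups did not overlap, and the log2 change was 1.82 ± 0.59 (edgeR adjusted p = 0.423, DESeq2 adjusted p = 0.0376). It was 1.20 without knockout replicate 2. For each 100 Igha counts there were 18.6, 19.8 and 21.9 Jchain counts in knockout, against 23.6, 24.1 and 26.2 in wild-type. All 3 knockout ratios lay below all 3 wild-type ratios, and the difference was not tested.

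Light chain RNA was mostly kappa in both genotypes. Igkc (chr6:70726435-70726966, plus strand), the kappa constant gene, had 233, 447 and 193 CPM in knockout, against 102, 102 and 20.7 CPM in wild-type. Groups did not overlap, and the log2 change was 1.95 ± 0.60 (edgeR adjusted p = 0.404, DESeq2 adjusted p = 0.0199). For each 100 Igha counts there were 63.3, 46.5 and 54.6 Igkc counts in knockout, against 60.4, 54.9 and 51.1 in wild-type, with overlapping groups.

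The lambda constant genes supplied the rest of the light chain RNA. Iglc1 had 8.92, 13.2 and 10.2 CPM in knockout, against 5.81, 9.50 and 0.821 CPM in wild-type, and the groups overlapped. Iglc2 had 1.21, 2.61 and 1.00 CPM in knockout, against 0.750, 0.906 and 0.161 CPM in wild-type, without overlap, and Iglc3 had 0.622, 0.811 and 0.195 CPM in knockout, against 0.129, 0.212 and 0.143 CPM in wild-type, with overlap. Log2 changes were 1.01, 1.42 and 1.76 for Iglc1, Iglc2 and Iglc3, with edgeR adjusted p of 0.787, 0.601 and 0.411. That of Iglc1 was 0.49 without wild-type replicate 3 and 1.71 without wild-type replicate 2.

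Kappa made up 95.6, 96.4 and 94.4% of light chain constant counts in knockout, against 93.9, 90.6 and 94.8% in wild-type. The means were 95.5 ± 1.00% and 93.1 ± 2.22% (SD, n = 3 each), a difference of 2.37 percentage points with overlapping groups, which was 1.12 without wild-type replicate 2. Counted over V genes, kappa made up 89.5, 90.0 and 88.9% in knockout, against 85.5, 85.4 and 91.4% in wild-type. Within lambda, Iglc1 held 82.9, 79.4 and 89.5% of constant counts in knockout, against 86.9, 89.5 and 73.0% in wild-type, which also overlapped. Iglv1 had 8.92, 21.7 and 12.5 CPM in knockout, against 6.17, 8.71 and 0.892 CPM in wild-type, a log2 change of 1.45 ± 0.71 (edgeR adjusted p = 0.649), with groups that met closely but did not overlap. Iglv3 had 0.233, 1.12 and 0.341 CPM in knockout, against 0.193, 0.0579 and 0.0714 CPM in wild-type, without overlap, and Iglv2 had overlapping groups.

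The V genes were higher in knockout in sum, and the genes that led differed from library to library. Summed Ighv genes had 34.5, 131 and 61.2 CPM in knockout, against 22.4, 25.9 and 7.08 CPM in wild-type, and summed Igkv genes had 77.4, 208 and 106 CPM in knockout, against 36.4, 52.2 and 9.79 CPM in wild-type. Neither sum overlapped between genotypes. Of the genes tested, 43 of 43 Ighv genes and 51 of 53 Igkv genes had positive log2 changes, with medians of 1.83 and 2.11, and 0 of either passed the edgeR threshold.

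The Ighv genes with the highest normalized sums were Ighv1-26, Ighv3-6, Ighv1-53, Ighv10-3 and Ighv9-3. Ighv3-6 had 4.20, 7.32 and 5.10 CPM in knockout, against 1.99, 2.62 and 0.125 CPM in wild-type (log2 1.81 ± 0.81, edgeR adjusted p = 0.602). Ighv1-53 had 2.13, 6.33 and 2.22 CPM in knockout, against 1.59, 1.91 and 0.339 CPM in wild-type (log2 1.48 ± 0.67, edgeR adjusted p = 0.611). Neither overlapped between genotypes, and the change of Ighv1-53 was 0.78 without knockout replicate 2. Ighv1-26 had 1.62, 20.2 and 1.58 CPM in knockout, against 0.986, 1.31 and 0.286 CPM in wild-type. Its log2 change of 3.19 was 0.90 when knockout replicate 2 was left out. Ighv10-3 behaved in the same way, with 5.20 and 0.94 when that library was left out, and Ighv9-3 had 2.71 and 1.02.

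The Igkv genes with the highest normalized sums were Igkv8-30, Igkv1-110, Igkv10-96, Igkv1-117 and Igkv4-53. Igkv8-30 had 6.31, 9.52 and 9.12 CPM in knockout, against 2.32, 1.89 and 0.446 CPM in wild-type. Its groups did not overlap, and its log2 change was 2.43 ± 0.54, with an edgeR adjusted p of 0.273 and a DESeq2 adjusted p of 0.000285. With any 1 library left out that change ran from 1.98 to 2.84. Igkv10-96 had 7.49, 9.93 and 3.24 CPM in knockout, against 2.81, 2.25 and 0.928 CPM in wild-type, and Igkv1-117 had 3.84, 12.7 and 2.66 CPM in knockout, against 1.52, 2.16 and 0.803 CPM in wild-type. DESeq2 called both, with adjusted p of 0.0200 and 0.0223, and edgeR gave 0.365 and 0.393. The log2 change of Igkv1-117 was 2.10, and 1.13 without knockout replicate 2. Igkv4-53 had 2.69, 16.5 and 2.0 CPM in knockout, against 0.622, 1.37 and 0.196 CPM in wild-type, with a log2 change of 3.28 that was 1.70 without knockout replicate 2. Igkv1-110 had 1.80, 7.48 and 12.8 CPM in knockout, against 1.07, 4.74 and 0.553 CPM in wild-type, and overlapped. Igkv15-103 was 1 of 2 tested Igkv genes with a negative log2 change. Igkv15-103 had 1.07, 2.81 and 3.27 CPM in knockout, against 1.31, 8.96 and 0.125 CPM in wild-type. Its log2 change of −0.54 became 1.74 without wild-type replicate 2. The other gene, Igkv13-84, named after its values were seen, had −0.59, and −0.63 with limma-voom.

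**Figure D4:**
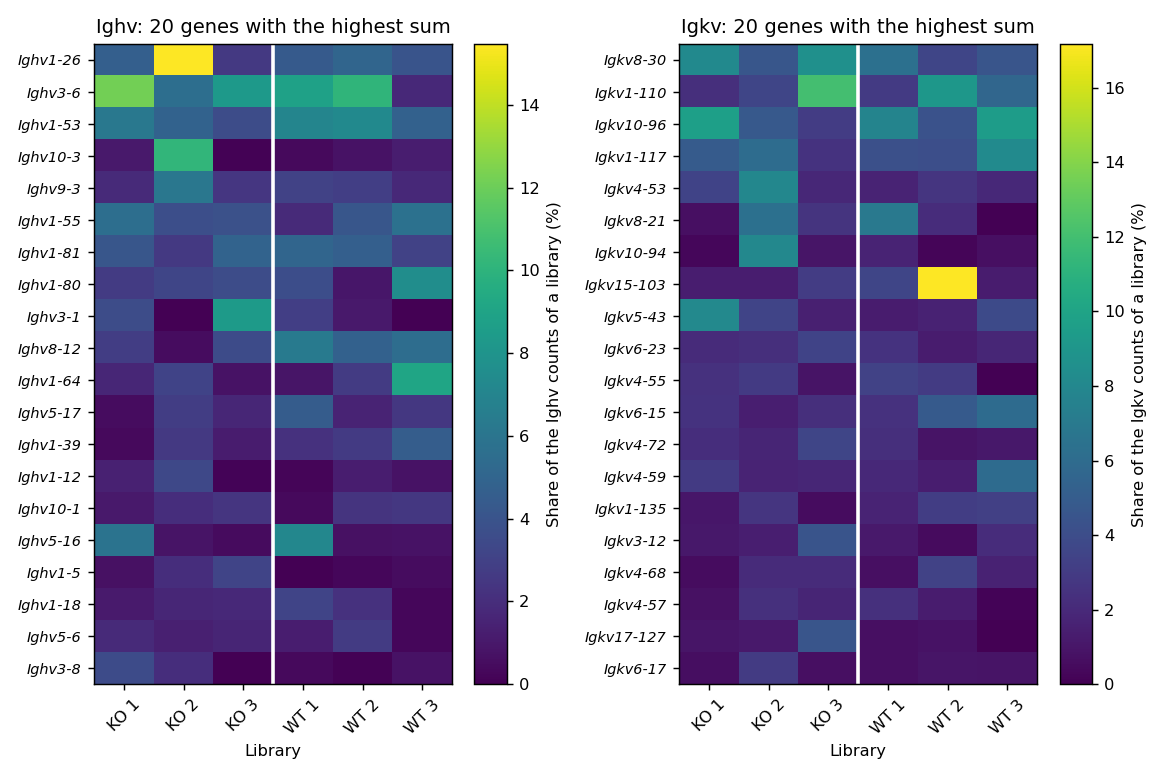
Share of Ighv counts (left) and Igkv counts (right) in each library that fell on the 20 genes of highest sum, as colour (%), knockout columns to the left of the white line. The brightest cells are Igkv15-103 at 17.2% in wild-type replicate 2 and Ighv1-26 at 15.5% in knockout replicate 2.

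The V gene with the largest share differed between libraries. For Ighv it was Ighv3-6 in knockout replicate 1 with 12.2% of the Ighv counts, Ighv1-26 in replicate 2 with 15.5% and Ighv3-1 in replicate 3 with 8.44%. In wild-type it was Ighv3-6 in replicates 1 and 2 with 8.88% and 10.1%, and Ighv1-64 in replicate 3 with 9.07%. For Igkv it was Igkv10-96 with 9.68% in knockout replicate 1, Igkv10-94 with 8.04% in replicate 2 and Igkv1-110 with 12.0% in replicate 3, against Igkv10-96 with 7.71%, Igkv15-103 with 17.2% and Igkv10-96 with 9.47% in wild-type replicates 1, 2 and 3. No Ighv or Igkv gene led in more than 3 of the 6 libraries. A V gene share is not the size of a clone, since many clones can use 1 V gene, and reads are not cells.

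For some V genes, 1 animal held most of the counts. Knockout replicate 2 held 94.1% of the Ighv10-3 counts, 90.6% of the Igkv10-94 counts, 79.0% of the Ighv1-26 counts and 71.5% of the Igkv4-53 counts. Knockout replicate 3 held 93.3% of the Ighv1-37 counts and 79.2% of the Ighv5-4 counts, and wild-type replicate 2 held 87.3% of the Igkv4-79 counts. Ighv1-37, Ighv5-4 and Igkv4-79 were named after their values were seen. On the normalized scale, 1 library held at least 50% of the sum for 28 of 60 Ighv genes (46.7%) and 29 of 66 Igkv genes (43.9%), against 262 of 20013 genes of at least the same sum (1.31%). Of the 12 constant region genes and Jchain, 1 did so, which was Ighg3. Knockout replicate 2 was the top library for 34 of the 60 Ighv and 38 of the 66 Igkv genes. It was also the library that held at least 50% for 19 of the 28 Ighv and 22 of the 29 Igkv genes. That library had the highest summed immunoglobulin RNA. A V gene near the limit of the sum could pass it through 1 library alone, and the 20013 genes were not matched for level. The part of these in the contrast with 1.31% was not tested.

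Evenness of V gene use did not separate the genotypes. The effective number of genes, which is the number of equally used genes that would give the same inverse Simpson index, was 23.8, 18.4 and 27.3 for Ighv in knockout, against 25.6, 25.6 and 24.8 in wild-type. Its means were 23.2 ± 4.47 in knockout, against 25.4 ± 0.466 in wild-type (SD, n = 3 each). Knockout replicate 2 was lowest and knockout replicate 3 highest, so the wild-type libraries lay between them. The difference of −2.19 was 0.18 without knockout replicate 2, and 0.85 with an index based on Shannon entropy. For Igkv the effective number was 25.6, 27.6 and 24.8 in knockout, against 29.3, 17.7 and 24.5 in wild-type. Its means were 26.0 ± 1.45 in knockout, against 23.8 ± 5.81 in wild-type, and the low library was wild-type replicate 2, where Igkv15-103 led. The difference of 2.20 was −0.86 without wild-type replicate 2.

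The 5 most used Ighv genes held 35.0, 42.2 and 31.9% of Ighv counts in knockout, against 34.5, 33.7 and 33.5% in wild-type. For Igkv they held 35.2, 33.2 and 33.2% in knockout, against 31.9, 40.7 and 35.3% in wild-type. Deeper libraries show more genes, so numbers of genes were compared at the lowest library depth. At 397 Ighv counts, the expected number of genes seen was 52.8, 51.0 and 49.7 in knockout, against 51.3, 50.1 and 47 in wild-type, with overlapping groups. At 549 Igkv counts it was 57.0, 57.6 and 56.7 in knockout, against 54.4, 54.6 and 51 in wild-type, higher in each knockout library. The genes were kept by a sum to which the knockout libraries gave most counts, and the part of that in the Igkv difference was not tested.

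**Figure D5:**
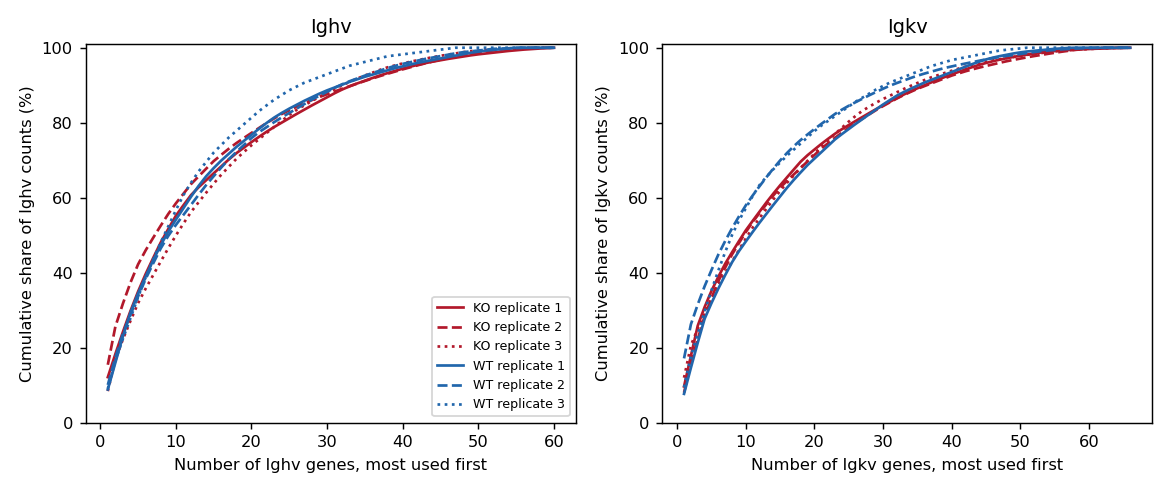
Cumulative share of Ighv counts (left) and Igkv counts (right) on the y axis (%) against the number of genes, most used first, on the x axis, for the 3 knockout (red) and 3 wild-type libraries (blue). Knockout replicate 2 starts highest for Ighv, with 42.2% in 5 genes, and wild-type replicate 2 for Igkv, with 40.7%.

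Likeness in V gene use covered overlapping ranges within and between the genotypes. The share of Ighv use that a pair of libraries had in common was 52.1 to 60.5% between knockout libraries, 49.3 to 66.1% between knockout and wild-type libraries, and 53.5 to 63.1% between wild-type libraries. For Igkv it was 54.3 to 61.9%, 50.3 to 65.1% and 55.1 to 57.9% for the same kinds of pair. By V gene family, the Ighv1 family of 36 genes held 49.7, 57.9 and 57.5% of Ighv counts in knockout, against 51.7, 60.3 and 70.0% in wild-type. Of the 11 Ighv families, Ighv8, with 2 genes, alone had groups that did not overlap, at 3.97, 1.39 and 3.82% in knockout, against 7.35, 5.87 and 5.79% in wild-type. Of the 16 Igkv families, 2 did not overlap, Igkv17 higher and Igkv13 lower in knockout. Igkv17, with 2 genes, held 2.29, 1.98 and 4.87% in knockout, against 1.00, 1.22 and 1.28% in wild-type. Igkv13, with 2 genes, held 0.362, 0.981 and 0.667% in knockout, against 1.77, 1.70 and 1.09% in wild-type. For levels of single genes, 7.22% of all genes tested did not overlap with knockout higher, and 7.01% with knockout lower. These families were named after their values were seen, and none was tested.

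The plasma cell list had a smaller median log2 change than the antibody genes. Its members Mzb1 and Pou2af1 had 1.63 and 1.53, against the antibody gene median of 1.89. Of 20 plasma cell genes tested, 0 passed the edgeR threshold, 18 had positive and 2 negative log2 changes, and the median was 0.22. Mzb1, which assists antibody assembly in the endoplasmic reticulum, had 1.79, 3.12 and 1.93 CPM in knockout, against 0.857, 0.848 and 0.499 CPM in wild-type. Groups did not overlap, and the log2 change was 1.63 ± 0.35 (edgeR adjusted p = 0.251). Pou2af1, a B lineage transcriptional coactivator gene, had 1.31, 3.48 and 1.44 CPM in knockout, against 0.750, 1.25 and 0.161 CPM in wild-type, also without overlap. Eaf2 had a log2 change of 0.58 and Derl3, a protein degradation gene of secretory cells, 0.82. Tnfrsf17, the receptor BCMA of long-lived plasma cells, had 0.699, 0.793 and 0.512 CPM in knockout, against 0.429, 0.520 and 0.285 CPM in wild-type, which overlapped. Sdc1, Xbp1, Prdm1 and Irf4, which other cell types of the uterus can also express, had log2 changes of −0.07, 0.19, 0.18 and −0.14. The summed list was 1328, 1316 and 1223 CPM in knockout, against 1174, 1131 and 1142 CPM in wild-type. That sum came mainly from secretory pathway and other genes that many cells express, such as Xbp1, Txndc5, Tent5c and Ssr4, so Mzb1 and Pou2af1 barely enter it. An edgeR unadjusted p under 0.05 was reached by 1 higher gene and by 0 lower ones, against 5.27% higher and 3.29% lower over all genes tested. Groups did not overlap for 5 of the 20, each higher in knockout, against 7.22% higher over all genes. Positive log2 changes made up 52.1% over all genes. Tnfrsf17, Sdc1, Xbp1, Prdm1 and Irf4 are named as defining markers, and Txndc5, Tent5c and Ssr4 for their share of the sum, after their values were seen.

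Of 20 listed B cell genes, 15 were tested and 0 passed. Of these, 13 were positive and 2 negative, with a median log2 change of 0.54, against 52.1% positive over all genes. An edgeR unadjusted p under 0.05 was reached by 8 higher genes and 0 lower ones, against 5.27% higher and 3.29% lower over all genes. Spib, a lymphoid transcription factor gene, had 0.404, 0.397 and 0.463 CPM in knockout, against 0.107, 0.0964 and 0.0714 CPM in wild-type (log2 2.18 ± 0.35, edgeR adjusted p = 0.150). Cd79a, a subunit of the B cell receptor, had 0.746, 1.55 and 0.853 CPM in knockout, against 0.514, 0.540 and 0.482 CPM in wild-type. Groups did not overlap for 7 of the 15, against 7.22% higher over all genes, and Spib, Cd79a, Cd22 and Pou2f2 were among them. The defining markers Ms4a1 and Pax5 were at or below 0.195 CPM in each knockout library and at or below 0.107 CPM in each wild-type library, too low to test. The summed list was 93.2, 88.3 and 112 CPM in knockout, against 69.8, 78.0 and 74.7 CPM in wild-type, and most of it came from Blnk and Ebf1, which other cell types also express. Blnk alone averaged 38.0 CPM in knockout, against 26.7 CPM in wild-type, with overlapping groups. Blnk and Ebf1 were named after their values were seen.

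Genes for the homing and transport of IgA cells were mostly positive, with 0 calls. Of 11 tested, 10 were positive, against 52.1% over all genes, and the median log2 change was 0.62. An edgeR unadjusted p under 0.05 was reached by 5 higher genes and 0 lower ones, against 5.27% higher and 3.29% lower over all genes. Groups did not overlap for 6 of the 11, each higher in knockout, against 7.22% higher over all genes. Ccr10, the chemokine receptor of IgA plasma cells, had 1.15, 1.95 and 1.10 CPM in knockout, against 0.643, 0.713 and 0.535 CPM in wild-type (log2 1.15 ± 0.32, edgeR adjusted p = 0.354). Its ligand gene Ccl28 had 22.7, 26.1 and 34.6 CPM in knockout, against 16.7, 15.6 and 22.0 CPM in wild-type (log2 0.62 ± 0.20, edgeR adjusted p = 0.431). Neither overlapped between genotypes. Ccl25, the ligand of the gut-homing receptor CCR9, had 3.64, 4.22 and 7.66 CPM in knockout, against 1.41, 1.33 and 1.84 CPM in wild-type (log2 1.75 ± 0.33, edgeR adjusted p = 0.215). Itgb7, an integrin subunit gene of mucosal lymphocytes, and Vcam1, a ligand for integrins, had log2 changes of 0.67 and 0.61, both without overlap. Pigr, the polymeric immunoglobulin receptor gene, had 283, 285 and 472 CPM in knockout, against 205, 117 and 304 CPM in wild-type, with overlap. Ccl28 and Pigr were named for their known roles, after their values were seen.

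Of 12 tested genes for plasma cell survival and class switching, 10 were positive and 2 negative, with a median log2 change of 0.29 and 0 calls. Over all genes, 52.1% were positive. An edgeR unadjusted p under 0.05 was reached by 3 higher genes and 0 lower ones, against 5.27% higher and 3.29% lower over all genes. Groups did not overlap for 3 of the 12, each higher in knockout, against 7.22% higher over all genes. Tnfsf13b, which encodes BAFF, had 3.47, 3.95 and 2.95 CPM in knockout, against 2.36, 2.35 and 2.02 CPM in wild-type (log2 0.63 ± 0.21, edgeR adjusted p = 0.456). Tnfsf13, which encodes APRIL, had 14.7, 11.4 and 10.7 CPM in knockout, against 9.15, 10.3 and 6.82 CPM in wild-type (log2 0.48 ± 0.21, edgeR adjusted p = 0.592). In neither did the groups overlap. Il21r had a log2 change of 0.49 and Aldh1a3, a retinoic acid synthesis gene, 1.85, with 8.47 CPM in knockout replicate 1 and at most 2.09 CPM in the other knockout libraries.

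Of 10 Fc receptor genes, 5 were positive and 5 negative (median log2 0.04), with 0 calls. At an edgeR unadjusted p under 0.05 there was 1 gene in each direction, against 5.27% higher and 3.29% lower over all genes. Fcgr4, a receptor for IgG, had 9.54, 7.23 and 10.6 CPM in knockout, against 5.83, 5.95 and 5.17 CPM in wild-type (log2 0.69 ± 0.19, edgeR adjusted p = 0.362). Ms4a2, a subunit of the IgE receptor of mast cells, had a log2 change of −1.18. Fcgr1 and Fcer1g had 0.34 and 0.31, with overlapping groups.

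Markers of other cells were read beside these results. Of 16 natural killer and T cell genes, 15 were positive and 1 negative (median log2 0.77), with 0 calls, against 52.1% positive over all genes tested. By an edgeR unadjusted p under 0.05, 9 were higher and 0 lower, against 5.27% higher and 3.29% lower over all genes. Groups did not overlap for 11, each higher in knockout, against 7.22% higher over all genes. Their sum was 27.3, 21.3 and 20.1 CPM in knockout, against 15.0, 14.7 and 14.7 CPM in wild-type, so it moved with genotype as the immunoglobulin sum did. Knockout replicate 2, highest for immunoglobulin, was not highest for these genes. Gzma, Gzmb, Nkg7 and Cd3e had log2 changes of 1.53, 1.29, 1.11 and 1.33. The part of a wider change in lymphocytes in the immunoglobulin result was not tested.

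Markers of uterine epithelium, beneath which IgA plasma cells can lie, ranked the libraries differently from immunoglobulin RNA. Of its 14 markers, 9 were positive and 5 negative (median log2 0.09), with 0 calls and 0 at an unadjusted p under 0.05 in either direction, and Ehf, Foxa2, Cldn3 and Elf3 all overlapped between genotypes. Their sum was 2818, 1178 and 4776 CPM in knockout, against 2570, 1779 and 3849 CPM in wild-type. Knockout replicate 2 was the lowest of the 6 libraries and wild-type replicate 3 the second highest, whereas for immunoglobulin they were the highest and the lowest. The part of tissue make-up in the immunoglobulin result was not tested.

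Markers of 4 other tissues were read in the same way. The milk protein genes Csn2 and Csn1s2a were at 0 in 6 of 6 libraries, and the 7 mammary markers summed to 0.0541 to 0.122 CPM in knockout, against 0.0214 to 0.193 CPM in wild-type. Of 10 intestinal markers, 5 were tested, with 3 positive, 2 negative and 0 calls, and their sum was 10.5 to 14.9 CPM in knockout, against 9.65 to 20.5 CPM in wild-type. Krt20 and Lgals4, which other epithelia can also express, held most of that sum, with 5.28, 1.26 and 8.29 CPM for Krt20 in knockout, against 13.1, 3.37 and 9.17 CPM in wild-type. The enterocyte genes Cdx1, Alpi, Sis and Fabp2 were each at or below 0.0771 CPM in each library, while Cdx2, which is also expressed in trophoblast, had 1.88 CPM in knockout replicate 1 and at most 0.150 CPM elsewhere. All the intestinal genes named here were chosen after their values were seen. Of 8 lymph node stroma genes, of which Cr2 and Fcer2a also mark B cells, 3 were tested, with 1 positive, 2 negative and 0 calls. They summed to 1.09, 1.78 and 2.66 CPM in knockout, against 3.67, 1.97 and 0.803 CPM in wild-type. Placental markers summed to 341, 11.7 and 1.20 CPM in knockout, against 41.8, 31.5 and 43.4 CPM in wild-type, and 5 of the 9 tested were positive, 4 negative and 0 called. Knockout replicate 1 was the highest library for placental markers. The part of carried tissue in the immunoglobulin result was not tested.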

How the data were processed

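Poly(A)-selected, directional RNA-seq libraries from 3 Tcf23 knockout and 3 wild-type mice were analysed. Raw counts by Ensembl gene were deposited for every library, together with a table of normalized values, a signal that the authors made by multiplying each library's counts by a single constant (0.804 to 1.26, read from the values). Tools named in the submitters' processing notes, without their roles, are HISAT2 2.2.1, FastQC 0.73, DESeq2 2.11.40.7 and HTSeq 0.9.1, with build mm10. Which annotation, strand setting and handling of multiply mapped reads were used, the sources used here do not say. All 141 identifiers were found in GENCODE M21, 140 at the same position. Another annotated gene overlaps 6 of them.

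The test was edgeR 4.0.16's quasi-likelihood test under R 4.3.3 (filterByExpr, TMM, genotype as the only term, Benjamini-Hochberg adjustment over 19599 genes, adjusted p under 0.05). The pipeline was tested on simulated data. The biological coefficient of variation was 26.3%. DESeq2 1.42.0 and limma-voom (limma 3.58.1) were alternatives. Log2 changes are given ± standard error. Isotype shares divide counts by exonic length. V gene indices use counts of the listed genes, with the unbiased inverse Simpson index and analytic rarefaction. The share in common of a pair of libraries is the sum over genes of the smaller of the gene's shares. Reads are not molecules, so an index or a share carries more error than its counts imply.

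The genes and the marker lists were chosen with earlier results of these data known. Named are Jchain, the constant region genes, the 5 Ighv, 5 Igkv and all Iglv genes of highest sum, the leading Ighv and Igkv gene of each library, any gene past the threshold, and up to 4 tested genes of smallest p in each marker list, with exceptions stated. For the lists of intestine, placenta and lymph node stroma this part of the rule was not followed: sums and counts are given, with a few intestinal genes chosen after their values were seen.

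The sample titles give both genotypes replicate numbers 1 to 3. Deviations from the group mean correlated at 0.147, 0.196 and 0.217 for libraries of the same number and −0.223 to 0.061 for others, so same-numbered libraries were treated as pairs in an alternative fit, with that number as a block. What links them is not stated.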

Additional observations from a re-analysis of the deposited data

How the results depend on the processing

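The summed level and the kappa share kept their direction under each alternative run; with any 1 library left out the log2 ratio of summed levels was 1.35 to 2.24 and the kappa difference 1.12 to 3.24 percentage points. The difference in Igha share was 1.74 percentage points with Ighm and Ighd left out, since both are then missing from the total, and 9.59 to 23.3 with any 1 library left out. The number of genes called, 0 of 110 in edgeR, was 12 of 141 with no filter on low counts, where 47 of 35229 genes were called higher and 34 lower. With DESeq2 it was 34 of 107, where 248 of 19173 genes were called higher and 138 lower. It was 0 with RLE scaling, a stricter filter, limma-voom, the replicate block and any 1 library left out. The effective number of Ighv genes, lower by 2.19 in knockout, differed by 0.85 with the Shannon index and by −4.25 to 0.18 with any 1 library left out, and for Igkv by −0.86 to 4.91. The log2 change of Igkv15-103 was 0.88 with limma-voom, 0.37 with the replicate block and 1.74 without wild-type replicate 2, and −1.12 to 1.74 with any 1 library left out, and that of Ighd was −0.11 without knockout replicate 3 and −0.11 to 0.52 with any 1 left out. The replicate block changed no call. The cause of these changes was not tested. Over all pairs of a named gene and an alternative, 312 log2 changes kept their direction and side of the threshold, 8 came past it and 4 turned, and 2 had no adjusted p in DESeq2 (Ighv1-26 and Ighv10-3). With 397 to 549 V gene counts in the shallowest library, shares below 1% there rest on few reads.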
